A study of Homo sapiens with 6 samples.

Results

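NDUFAF1 to NDUFAF8 encode assembly factors of mitochondrial complex I, and the 8 genes were taken by symbol from a table of 60676 genes, of which 12565, all 8 included, reached a total of 10 counts and were tested. NDUFAF2 was chosen by its measured recovery in the pull-down of the long non-coding RNA CyCoNP, so its values are given as a description without a test, and the question was whether the other 7 genes share them. The data come from a native RNA pull-down in cells of the human neuroblastoma line SK-N-BE, all at day 1.5 of differentiation with retinoic acid. Biotinylated antisense probes against CyCoNP, or against the bacterial gene LacZ as a control, were added to a whole-cell extract and retrieved on streptavidin beads (CyCoNP PD and LacZ PD), and a portion of the extract taken before the probes served as input. Each of the 3 groups has 2 PCR-amplified cDNA libraries read on a Nanopore flow cell, deposited as raw counts per gene.

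Complex I, the NADH dehydrogenase of the respiratory chain, is built from nuclear-encoded and mitochondrially encoded subunits that are joined in modules. Assembly factors bind the intermediates and modify or stabilise them, and they are absent from the finished enzyme. NDUFAF2 acts late, as a paralog of the subunit NDUFA12 that holds its place until the NADH-oxidising module is added. Loss of several of these factors, NDUFAF2 among them, causes mitochondrial disease of the nervous system.

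The libraries were of very unequal depth, with 717905 and 791970 counts in input, 1512148 and 514882 in CyCoNP PD, with 18870 and 140115 in LacZ PD. To be seen with 3 counts a gene needed 159 CPM (its counts scaled to a common library total) in LacZ PD 1 and 21.4 CPM in LacZ PD 2, so the control resolves most of the 8 genes poorly. CyCoNP itself (LINC02381) took 20 and 39 counts in input, 11687 and 3507 in CyCoNP PD, with 1 and 20 in LacZ PD. As CPM these are 27.9 and 49.2 in input, 7729 and 6811 in CyCoNP PD, with 53.0 and 142.7 in LacZ PD. CyCoNP PD was thus the highest group, as its label gives, and the unnormalised LacZ PD values lay above both inputs. All 10 markers of noradrenergic neuroblastoma were detected in both inputs. Of 6 markers of cell types that the culture should lack, PTPRC and PECAM1 had 0 counts in every library, and the summed level of the 6 was 449.9 and 24.0 CPM in input, 232.1 and 19.4 CPM in CyCoNP PD, with 265.0 and 21.4 CPM in LacZ PD. In these bulk libraries fewer cells of a type and less RNA per cell cannot be told apart. Replicate 1 of every group was thus the higher one in this sum, from the collagens COL1A1 and COL1A2. EPCAM ran the other way, with 0 counts in every replicate 1. Its counts in replicate 2 were 6 in input, 6 in CyCoNP PD and 2 in LacZ PD. NDUFAF2 was also higher in replicate 2 of CyCoNP PD. Whether this difference between replicates plays a part in the values below was not tested.

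NDUFAF2 (ENSG00000164182) lies on the plus strand of chromosome 5 of GRCh38 from 60945177 to 61154531. Its main transcript has 632 bases in 4 exons, whereas the gene spans 209355 bases, and only 8.31% of the tested genes have a shorter main transcript. A processed pseudogene, NDUFAF2P1, lies on the minus strand of chromosome 2 from 20529467 to 20529976 and copies the coding sequence without its introns. Over 510 aligned bases 502 are the same (98.4%), and the longest identical run is 204 bases, so that reads can be assigned to either copy. The first 2 of the 8 substitutions, C107T and T112A, counted from 1 at the first coding base of NDUFAF2, fall in exon 1 and are shown in capitals in the window chr5:60945340-60945369 of NDUFAF2 (plus strand) and chr2:20529863-20529892 of the pseudogene (minus strand), since within the coding sequence only such single bases separate the 2 copies. The annotated pseudogene ends with the coding sequence and holds neither the 51 bases before the start codon nor the 71 after the stop codon.
NDUFAF2: gggaacaaatactactacatccCgcagTac
NDUFAF2P1: gggaacaaatactactacatccTgcagAac

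The 22 probes against CyCoNP are the other sequences that bear on this recovery, because a probe can also retain RNAs that it pairs with directly. The control used 5 probes against LacZ, so CyCoNP PD and LacZ PD were not matched in probe number. Without matching for transcript length, 56.4% of 12527 tested genes hold an exact complementary stretch of at least 10 bases to a CyCoNP probe. The longest such stretch in the NDUFAF2 transcript is 10 bases. It covers coding bases 126 to 135, across the junction of exon 1 (chr5:60945381-60945382) and exon 2 (chr5:61073125-61073132), and capitals mark the paired bases in the transcript and in the probe, both 5′ to 3′.
NDUFAF2 exon 1 to 2: tggagAGGACAAACTattcg
CyCoNP PD probe 5: ctgccaaaAGTTTGTCCTtc

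The same measure was 8 to 11 bases in the other 7 genes, with the 11 bases in NDUFAF4. Against the CyCoNP transcript of 1369 bases (LINC02381-201), the longest stretch in NDUFAF2 was also 10 bases, in exon 4 at chr5:61152719-61152728, and 92.8% of the tested genes hold as long a stretch. These matches describe the letters only, since longer pairing with mismatches was not searched. Neither share of tested genes was matched for transcript length. The median main transcript of the tested genes has 2888.5 bases, against 632 in NDUFAF2, and longer transcripts hold more possible sites. Whether the NDUFAF2 matches are long for a transcript of its length was not tested. Capitals again mark the paired bases within chr5:61152714-61152733 of the plus strand, and the CyCoNP window starts at base 791 of that transcript.
NDUFAF2 exon 4: agaatGAAAAACACAgagaa
CyCoNP: gctgtTGTGTTTTTCtcccc

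NDUFAF2 took 125 and 146 counts in input, 2638 and 4473 in CyCoNP PD, with 6 and 35 in LacZ PD. As deposited CPM these are 174.1 and 184.4 in input, 1745 and 8687 in CyCoNP PD, with 318.0 and 249.8 in LacZ PD, with a 95% Wilson interval of 145.7 to 693.6 CPM in LacZ PD 1, which covers counting error only. Both CyCoNP PD libraries lay above the other 4, and both LacZ PD libraries lay above both inputs in these unnormalised values. After TMM normalization, which rescales the library totals, the mean was 6040 ± 5553 CPM (SD, n = 2) in CyCoNP PD, 202.7 ± 26.6 CPM (SD, n = 2) in input and 219.8 ± 42.8 CPM (SD, n = 2) in LacZ PD. On this scale the LacZ PD libraries, at 189.6 and 250.1 CPM, overlapped the inputs at 183.9 and 221.5 CPM. Both CyCoNP PD libraries still lay above the other 4, as they did for 8.88% of all genes tested. The CyCoNP PD libraries stood 10.4 and 49.2 times above the input mean, so the recovery was high in both and its size differed between them by much more than the inputs did. The log2 fold change against input was 4.90 in CyCoNP PD and 0.15 in LacZ PD, and that of CyCoNP PD against LacZ PD was 4.75. By log2 fold change it was rank 91 of the 12565 genes tested in CyCoNP PD against input. Against LacZ PD it was rank 1888, but genes without a single control count can take high folds in that ranking. The rare NDUFAF6, which neither LacZ PD library detected, stood above it at rank 730. How many genes above NDUFAF2 are of this kind was not counted, so rank 1888 does not place the recovery of NDUFAF2 over the control. Leaving out CyCoNP PD replicate 2 lowered the log2 fold change against input to 3.38, and leaving out replicate 1 raised it to 5.64. The LacZ PD value against input took either sign when single libraries were left out, as given below.

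**Figure D1:**
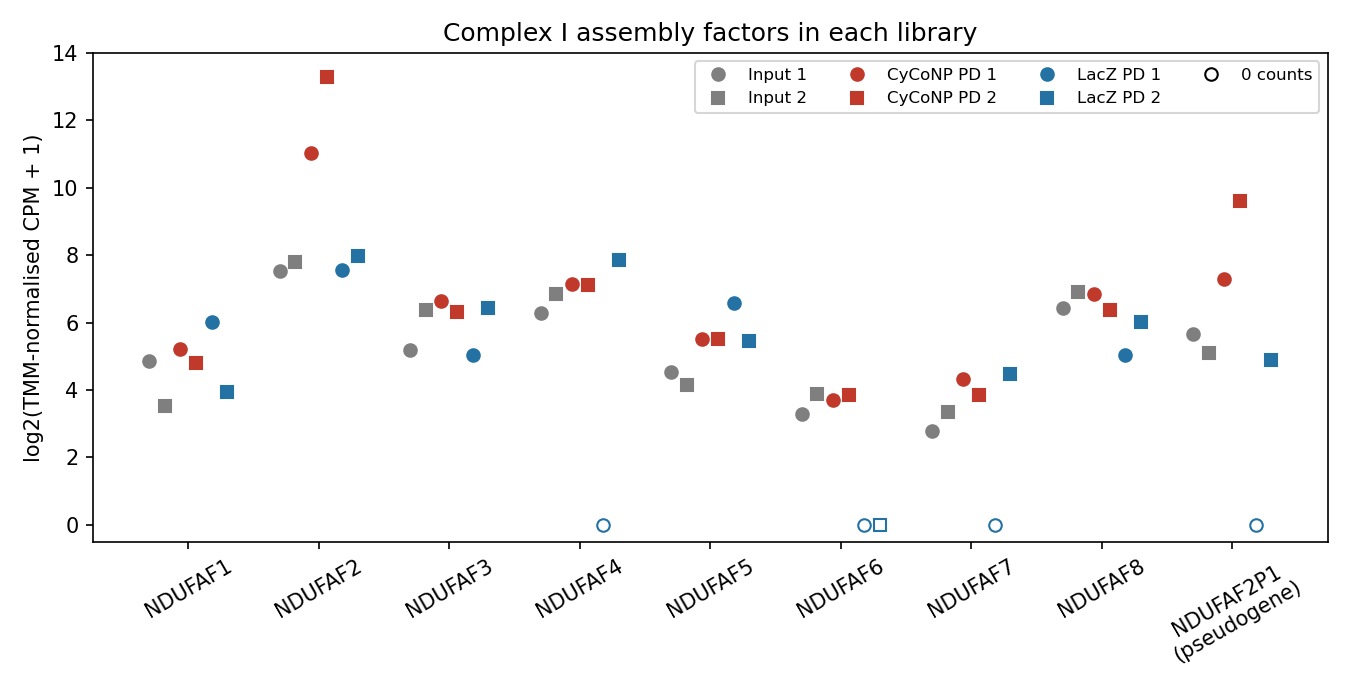
Level of each assembly factor gene and of the pseudogene NDUFAF2P1 in each of the 6 libraries, as log2 of the TMM-normalised CPM plus 1; circles are replicate 1, squares replicate 2, and open symbols mark 0 counts. NDUFAF2 and its pseudogene are the only genes drawn with both CyCoNP PD libraries above the other 4, as 8.88% of all genes tested have.

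The pseudogene NDUFAF2P1, described after its values were seen, took 34 and 22 counts in input, 194 and 350 in CyCoNP PD, with 0 and 4 in LacZ PD. It was thus highest in the same libraries as NDUFAF2. Of the counts given to the 2 copies, the pseudogene took 21.4% and 13.1% in input and 6.85% and 7.26% in CyCoNP PD. In LacZ PD it took 0 of 6 counts (95% Wilson interval up to 39.0%) and 10.3% (4.06% to 23.6%). With the counts of NDUFAF2 and its pseudogenes summed, the log2 fold change in CyCoNP PD against input was 4.73, close to the 4.90 of NDUFAF2 alone. The second pseudogene, NDUFAF2P2, had 0 counts in all 6 libraries. ERCC8, a DNA repair gene that starts 104 bases away on the opposite strand, took 6 and 7 counts in input, 19 and 14 in CyCoNP PD, with 1 and 3 in LacZ PD. Its log2 fold change in CyCoNP PD was 1.19 (SE 0.80, adjusted p = 0.9996, edgeR) and in LacZ PD against input 1.29 (SE 1.05, adjusted p = 0.774, edgeR), and it was called in neither. NDUFA12, the paralog, was measured at 144 and 363 counts in input, 678 and 190 in CyCoNP PD, with 16 and 95 in LacZ PD. Its log2 fold change against input was 0.34 (SE 0.64, adjusted p = 0.9996, edgeR) in CyCoNP PD and 0.65 (SE 0.66, adjusted p = 0.787, edgeR) in LacZ PD.

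None of the other 7 assembly factors was called in CyCoNP PD against input (an adjusted p under 0.05 with a log2 fold change past 1 in either direction), where edgeR's quasi-likelihood test called 0.127% of all genes tested. Their log2 fold changes ran from -0.042 to 1.20, with 6 above 0 and 1 below and a median of 0.60, against a median of -0.0085 and 49.4% above 0 over all genes. Each had an adjusted p of 0.9996, and 0 of the 7 passed an unadjusted p of 0.05 (5.4% of all genes did) or were called by DESeq2, which called 0.573% of all genes. The p-values measure the spread between libraries that the study calls biological duplicates, with no culture named in the labels. The 95% intervals of the 7 log2 fold changes reached from -1.89 to 3.09, so a rise of several-fold could not have been told from no change in the rarest of them. Both CyCoNP PD libraries lay above both inputs for NDUFAF4, NDUFAF5 and NDUFAF7, as for 17.2% of all genes, and above all 4 other libraries for none of the 7, against 8.88% of all genes.

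NDUFAF1, a core member of the MCIA complex that builds the membrane arm, took 19 and 7 counts in input, 45 and 12 in CyCoNP PD, with 2 and 2 in LacZ PD. Its CPM were 26.5 and 8.8 in input and 29.8 and 23.3 in CyCoNP PD, and the groups overlapped. The log2 fold change in CyCoNP PD was 0.71 (SE 0.76), and it was 1.55 without input replicate 1 and 0.18 without input replicate 2. The gene is ENSG00000137806 on the minus strand of chromosome 15 (41387218 to 41409403) of GRCh38, where its first part overlaps RTF1 on the other strand.

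NDUFAF3 and NDUFAF4 act together on the module that binds ubiquinone. They are listed as ENSG00000178057 on the plus strand of chromosome 3 (49020459 to 49023495) and ENSG00000123545 on the minus strand of chromosome 6 (96889315 to 96897891). NDUFAF3 took 24 and 54 counts in input, 124 and 35 in CyCoNP PD, with 1 and 12 in LacZ PD. The CyCoNP PD levels of 82.0 and 68.0 CPM overlapped the inputs at 33.4 and 68.2 CPM, and the log2 fold change was 0.60 (SE 0.66), with 0.12 without input replicate 1 and 1.32 without input replicate 2. NDUFAF4 took 52 and 75 counts in input, 174 and 62 in CyCoNP PD, with 0 and 32 in LacZ PD. Its CyCoNP PD levels of 115.1 and 120.4 CPM were above the inputs at 72.4 and 94.7 CPM, and LacZ PD 2 was higher still at 228.4 CPM. The 0 counts in LacZ PD 1 allow up to the 159 CPM of 3 counts, which covers all input and CyCoNP PD values. The log2 fold change in CyCoNP PD was 0.54 (SE 0.79).

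NDUFAF5 and NDUFAF7 modify arginines of core subunits, by hydroxylation and methylation. They are ENSG00000101247 on the plus strand of chromosome 20 (13785007 to 13821580) and ENSG00000003509 on the plus strand of chromosome 2 (37231631 to 37253403). NDUFAF5 took 15 and 11 counts in input, 56 and 20 in CyCoNP PD, with 3 and 6 in LacZ PD. At 37.0 and 38.8 CPM the CyCoNP PD libraries were above the inputs at 20.9 and 13.9 CPM, and the LacZ PD libraries, at 159.0 and 42.8 CPM, were above both groups before normalization. After TMM normalization LacZ PD 2, at 42.9 CPM, was below CyCoNP PD at 44.9 and 44.6 CPM. In the main fit NDUFAF5 had the highest log2 fold change of the 7 in CyCoNP PD, 1.20 (SE 0.67). Its 95% interval was -0.23 to 2.63, and it was also the highest in LacZ PD, at 1.61 (SE 0.80). Without input replicate 1 NDUFAF1 was the highest in CyCoNP PD, at 1.55. Without LacZ PD replicate 1 NDUFAF7 was the highest in LacZ PD, at 1.48. NDUFAF7 was rare, with 4 and 6 counts in input, 24 and 6 in CyCoNP PD, with 0 and 3 in LacZ PD. Its log2 fold change in CyCoNP PD was 1.12 (SE 0.92), one of 2 among the 7 above 1, where 14.1% of all genes lay, and the LacZ PD counts cannot resolve its level.

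NDUFAF8 stabilises NDUFAF5, and NDUFAF6 is needed early in assembly. They are ENSG00000224877 on the plus strand of chromosome 17 (81239305 to 81241310) and ENSG00000156170 on the plus strand of chromosome 8 (94895533 to 95116455). NDUFAF8 took 58 and 78 counts in input, 143 and 37 in CyCoNP PD, with 1 and 9 in LacZ PD. It was the only one of the 7 with a fold change below 0 in CyCoNP PD, at -0.042 on the log2 scale (SE 0.61), and this sign turned without input replicate 2, at 0.21, and without CyCoNP PD replicate 2, at 0.16. NDUFAF6 took 6 and 9 counts in input, 15 and 6 in CyCoNP PD, with 0 and 0 in LacZ PD. Its log2 fold change in CyCoNP PD was 0.16 (SE 0.95), and it turned to -0.11 without input replicate 1. No fold is given against LacZ PD, since 3 counts over both LacZ PD libraries would be 18.9 CPM, above the pooled 9.93 CPM of input and 10.4 CPM of CyCoNP PD.

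**Figure D2:**
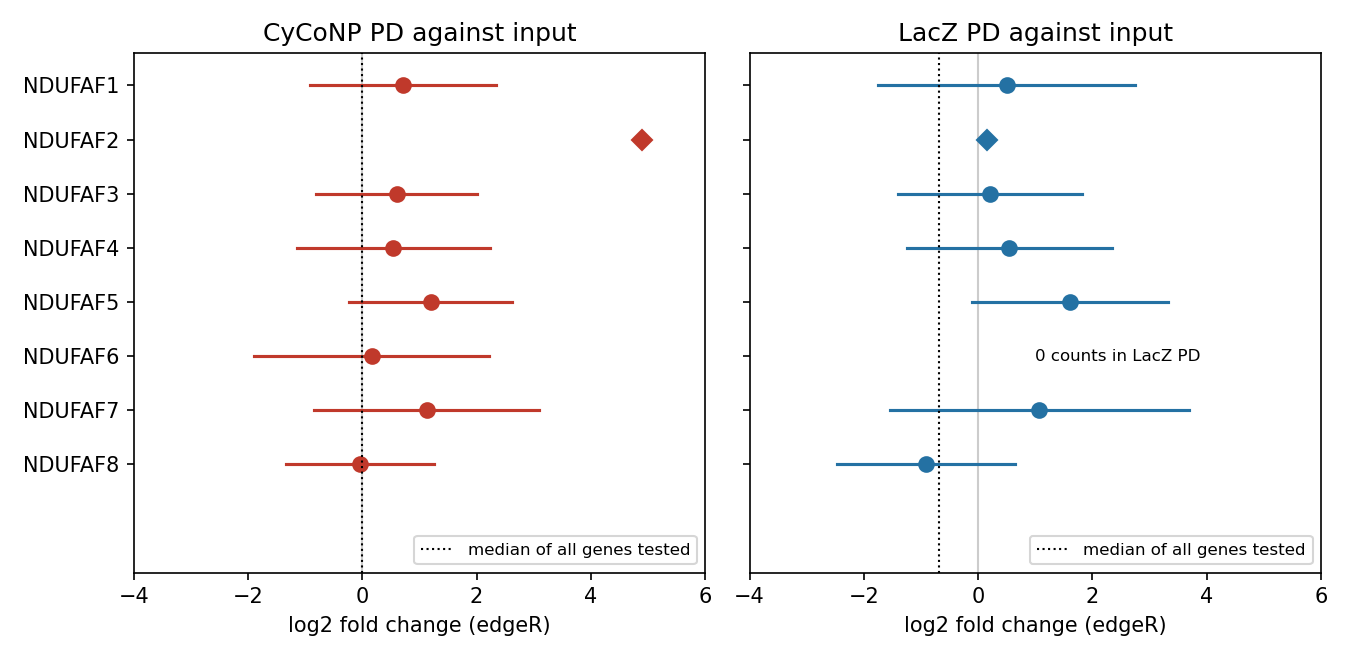
Log2 fold change of the 8 genes against input in CyCoNP PD (left) and LacZ PD (right), with 95% intervals for the genes tested, a diamond without interval for NDUFAF2, no value for NDUFAF6 in LacZ PD (0 counts), and a dotted line at the median of all genes tested. NDUFAF2 stands at 4.90 in CyCoNP PD, and the other 7 lie there between -0.042 and 1.20 with intervals that span 0.

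In LacZ PD against input none of the 7 genes was called, and the background was 0% of all genes with edgeR (7.02% passed an unadjusted p of 0.05, and 0 of the 7 did) and 0.43% with DESeq2. The level of all genes is shifted in this comparison, with a median log2 fold change of -0.68 after TMM normalization and -0.34 with library size alone. Against that median, the log2 fold changes of the 7 genes had a median of 0.50, and their adjusted p ran from 0.728 to 0.944. NDUFAF1, NDUFAF3, NDUFAF4, NDUFAF5 and NDUFAF7 were above 0 and NDUFAF8 was at -0.91 (SE 0.73), or -1.92 without LacZ PD replicate 2. Without LacZ PD replicate 2, NDUFAF3, NDUFAF4 and NDUFAF7 were below 0, but the median of all genes was then at -4.52, with NDUFAF3 above it at -1.12 and NDUFAF4 and NDUFAF7, at 0 counts in the remaining library, below it at -8.87 and -5.24. Those 0 counts allow up to the 159 CPM of 3 counts, so these values do not place NDUFAF4 or NDUFAF7 below the inputs. Without LacZ PD replicate 1 that median was -0.82 and NDUFAF1 was at -0.44.

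In CyCoNP PD against LacZ PD none of the 7 was called either, and the background was again 0% with edgeR (5.2% at an unadjusted p of 0.05, with 0 of the 7) and 0.302% with DESeq2. Their median log2 fold change was 0.21, against 0.64 over all genes, and the lowest adjusted p was 0.871. Genes at 0 counts in LacZ PD enter the median of all genes here too, and with filterByExpr it was 0.34. NDUFAF5 was at -0.41 (SE 0.78) and NDUFAF8 at 0.87 (SE 0.73), or 1.89 without LacZ PD replicate 2. The 2 comparisons with CyCoNP PD and the 2 with LacZ PD share their libraries and are not independent of each other. With library size alone in place of TMM the median over all genes moved from 0.64 to 0.22, and NDUFAF1, NDUFAF3 and NDUFAF7 moved below 0 with it.

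Within the counts of the 8 genes, NDUFAF2 took 41.3% and 37.8% in input, 82.0% and 96.2% in CyCoNP PD, with 46.2% and 35.4% in LacZ PD. This share needs no normalization between libraries, and only the CyCoNP PD libraries were apart from the rest. The LacZ PD 1 share is 6 of 13 counts, with a 95% Wilson interval of 23.2% to 70.9%. The other 7 genes summed to 247.9 and 303.0 CPM in input, 384.2 and 345.7 CPM in CyCoNP PD, with 371.0 and 456.8 CPM in LacZ PD, so this unnormalised sum was above both inputs in both pull-downs. After TMM normalization the sum in LacZ PD 1 was 221.2 CPM, below the inputs at 261.8 and 364.2 CPM, so the order in the control depends on the scaling.

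**Figure D3:**
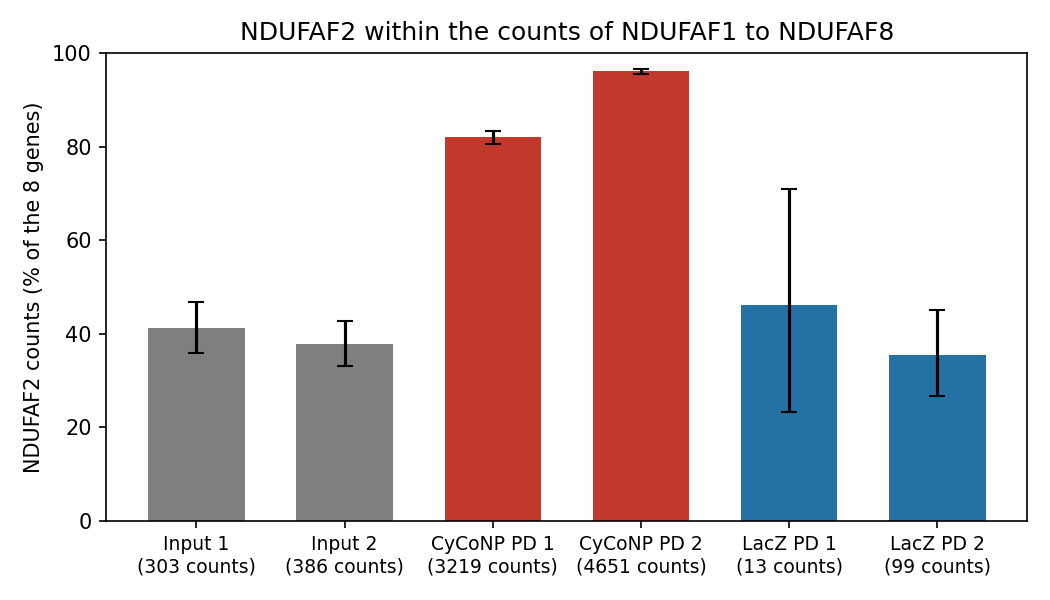
Share of NDUFAF2 in the counts of NDUFAF1 to NDUFAF8 in each library, with 95% Wilson intervals for counting error and the summed counts of the 8 genes under each bar. The share was 82.0% and 96.2% in CyCoNP PD and between 35.4% and 46.2% in the other 4 libraries.

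The wider set of complex I genes was described in the same fit. It called 0.127% of all genes in CyCoNP PD against input and 0% in LacZ PD against input. Of the 13 other complex I assembly factors, among them ECSIT and TMEM126B of the MCIA complex, 0 were called in CyCoNP PD against input, 12 were above 0 and the median log2 fold change was 0.36 (range -0.34 to 1.46). ECSIT was at -0.34 (SE 0.66) and LYRM2 at 0.014 (SE 0.71), while TMEM126B was at 0.65 (SE 0.61) and COA1 at 1.02 (SE 0.67). FOXRED1, a gene with fewer counts, was the highest of the 13 at 1.46 (SE 0.84). It took 3 and 12 counts in input, 30 and 18 in CyCoNP PD, with 0 and 1 in LacZ PD. Both its CyCoNP PD libraries lay above the other 4 after TMM normalization, as for 8.88% of all genes. In CyCoNP PD against LacZ PD FOXRED1 was at 2.43 (SE 1.39) and COA1 at 0.011 (SE 0.74), neither called. In LacZ PD against input 0 of these 13 were called and their median was 0.41, where the median of all genes was -0.68. Of the 37 nuclear-encoded complex I subunits 0 were called, 18 were above 0 and the median was -0.0091, next to -0.0085 over all genes (range -0.76 for NDUFB1 to 1.55 for NDUFA6). NDUFA6 was at 4.54 times the input mean in CyCoNP PD 1 and at 1.31 times in CyCoNP PD 2. Of 34 assembly factors of complexes II to V 0 were called, 21 were above 0 and the median was 0.10.

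The 7 mitochondrially encoded subunits were the most spread of the lists. Their log2 fold changes ran from -1.73 for MT-ND3 to 5.25 for MT-ND1, with a median of -0.57. After TMM normalization MT-ND3 was at 925.2 and 160.8 CPM in input and 242.7 and 82.4 CPM in CyCoNP PD, so its groups overlapped. With edgeR 0 of the 7 subunits were called (0.127% of all genes were). An unadjusted p of 0.05 with edgeR was passed by 3 of them (5.4% of all genes did). MT-ND1 took 581 and 249 counts in input, 48901 and 3481 in CyCoNP PD, with 113 and 530 in LacZ PD. Its log2 fold change against input was 2.58 in LacZ PD, where that of NDUFAF2 was 0.15. Its adjusted p with edgeR was 0.0661 in CyCoNP PD against input. In LacZ PD against input MT-ND1 was the only one of the 7 subunits above 0, with 6 below. Their median there was -2.56, against -0.68 over all genes. With edgeR 6 of the 7 passed an unadjusted p of 0.05 there (7.02% of all genes did), and 0 were called. With the replicate number as a block, edgeR called MT-ND1 and MT-ND5 in CyCoNP PD against input, where it called 2.26% of all genes. DESeq2 without the block called MT-ND1 in the same comparison, where it called 0.573% of all genes.

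**Figure D4:**
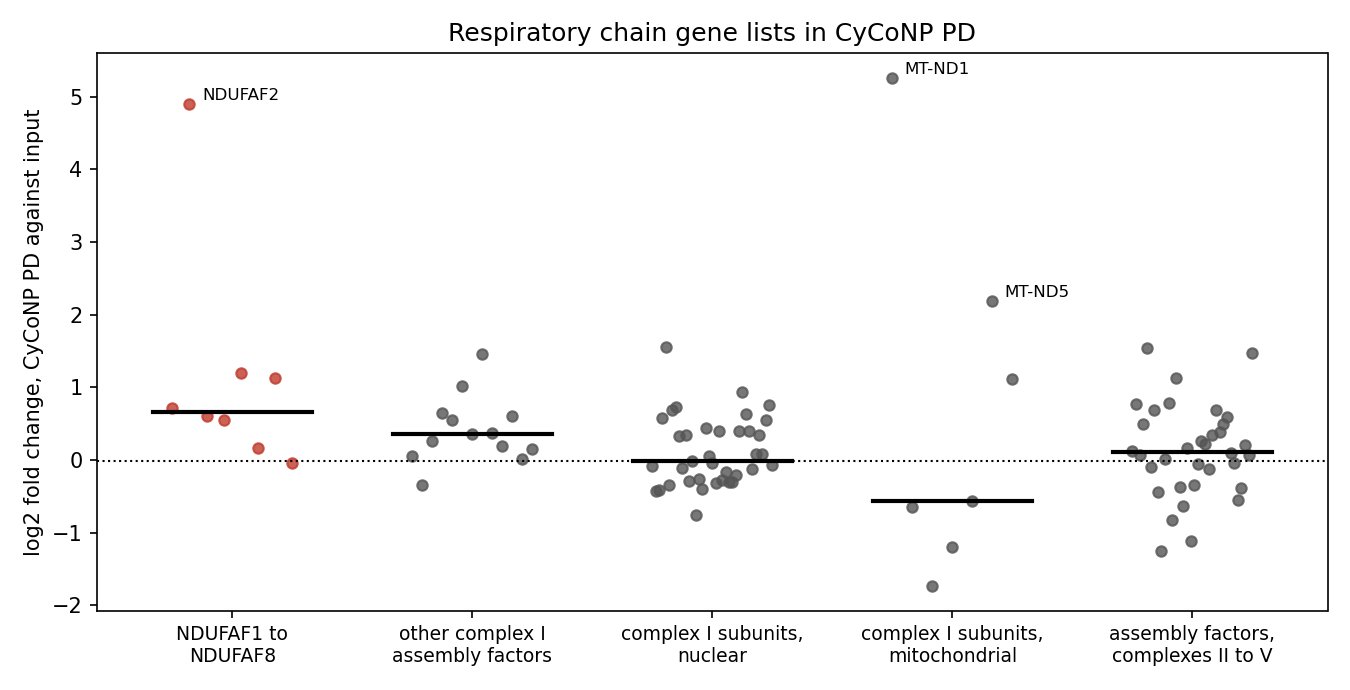
Log2 fold change in CyCoNP PD against input (edgeR) of every tested gene in 5 lists, with a bar at each list's median and a dotted line at the median of all genes. NDUFAF2 at 4.90 and MT-ND1 at 5.25 lie apart from the other genes drawn.

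The genes with a profile most like that of NDUFAF2 over the 6 libraries were looked for among 4316 genes with at least 100 counts, by the Euclidean distance between log2(CPM + 1) values centred on each gene's mean. The nearest 5 were PPDPF (distance 1.26), CTDNEP1 (1.35), UBE2V2 (1.38), DNAJC2 (1.61) and NFAT5 (1.61). PPDPF took 60 and 52 counts in input, 513 and 834 in CyCoNP PD, with 2 and 14 in LacZ PD, and was thus higher in CyCoNP PD 2 than in CyCoNP PD 1, as was NDUFAF2. NDUFAF1, NDUFAF6 and NDUFAF7 were under 100 counts and were not compared. Of the 4 other assembly factors compared, NDUFAF3 was the nearest, at a distance of 4.78 and 495th in order, and CyCoNP itself was 113th, at 4.01. The list holds no test, since the genes were sorted by the likeness itself.

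**Figure D5:**
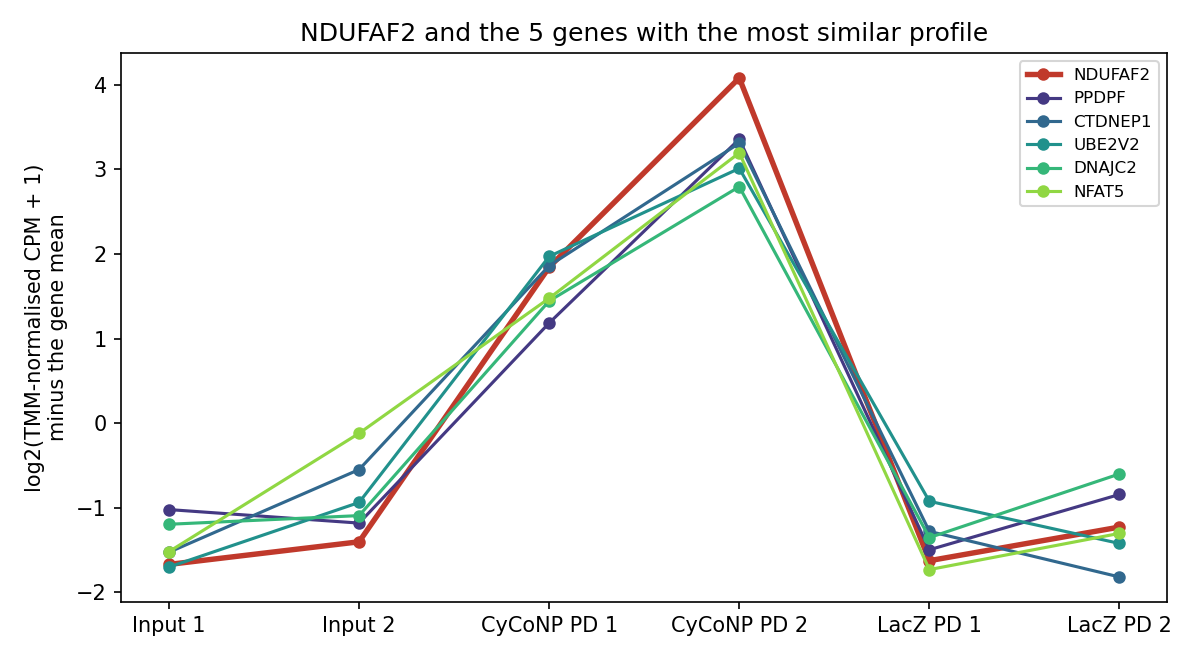
TMM-normalised log2(CPM + 1) minus the gene's mean over the 6 libraries for NDUFAF2 and the 5 genes nearest to it; lines only join the values of one gene. All 6 genes have both CyCoNP PD libraries above the other 4, as 8.88% of all genes tested have. All 6 genes also have CyCoNP PD 2 above CyCoNP PD 1.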

How the data were processed

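The authors basecalled the reads with Guppy, dropped short ones, mapped the others to GRCh38 (minimap2 2.24-r1122) and counted them by gene with Bambu and an Ensembl annotation. The authors deposited whole-number counts per gene and library, without normalization, and the same values as CPM. The deposited CPM differed from the counts divided by the library total by at most 5.1e-11. How Bambu splits reads between near-identical copies, and whether strand was used, bears on NDUFAF2 and its pseudogenes and on members that overlap a gene on the other strand.

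Columns were given to libraries by their names, with "pd" read as CyCoNP PD. Genes reaching 10 counts in total entered edgeR 4.0.16 (R 4.3.3, TMM, quasi-likelihood F test, all 6 libraries in 1 fit, no block, as the study's methods name none), with Benjamini-Hochberg adjustment over 12565 genes. Standard errors were derived from the F statistic. DESeq2 1.42.0, other scalings, filters, a replicate block and leaving out each library were alternatives. Deviations of same-numbered libraries from their group means correlated across genes at 0.449, 0.268 and 0.257, so a block on the number was run as an alternative, although no label ties a number to a shared extract. The fit was tested on simulated data. Replicates differed by more than sampling noise (chi-square per degree of freedom 18.4, 14.3 and 4.11).

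Members and lists were chosen with earlier results of these data known. Named genes are the members, genes within 2000 bases of one, their pseudogenes, NDUFA12, LINC02381, the 2 highest and 2 lowest genes of each list with at least 100 counts, and the 5 genes most like NDUFAF2. FOXRED1 was added for its values. Positions and transcripts came from GENCODE v44, probe sequences from the study's supplement. The authors' DESeq2 calls were not used.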

Additional observations from a re-analysis of the deposited data

How the results depend on the processing

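None of the other 7 assembly factors was called under any of the 15 alternatives in any comparison. The lowest adjusted p was 0.487, with the replicate block in edgeR for CyCoNP PD against input. Of 309 values of these genes, 284 kept their direction and 25 turned. In CyCoNP PD against LacZ PD, NDUFAF1 turned to -0.31 under library size alone, -0.078 under DESeq2 and -0.072 under DESeq2 and the block. NDUFAF3 turned to -0.031 under library size alone. NDUFAF7 turned to -0.13 with DESeq2-style size factors, -0.32 under library size alone and -0.048 under DESeq2. NDUFAF4 turned to 0.072 without a count filter, 0.10 with the block in edgeR and 0.21 with the block in DESeq2. With one library left out, log2 fold changes in CyCoNP PD against input ran from 0.18 to 1.55 for NDUFAF1, 0.12 to 1.32 for NDUFAF3, -0.11 to 0.50 for NDUFAF6 and from -0.28 to 0.21 for NDUFAF8. In LacZ PD against input they ran from -0.44 to 1.46 for NDUFAF1, -1.12 to 0.95 for NDUFAF3, -8.87 to 1.24 for NDUFAF4, -5.24 to 1.48 for NDUFAF7 and -1.92 to -0.64 for NDUFAF8. For CyCoNP PD against LacZ PD they ran from -0.74 to 1.15 for NDUFAF1, -0.71 to 9.42 for NDUFAF4, -0.83 to 0.073 for NDUFAF5, -0.35 to 6.37 for NDUFAF7 and 0.63 to 1.89 for NDUFAF8. The extreme values arise where the library left in has 0 counts. NDUFAF2 ranged with one library left out from 3.38 to 5.64 in CyCoNP PD against input, -0.34 to 0.31 in LacZ PD against input and 3.22 to 5.51 in CyCoNP PD against LacZ PD, and library size alone gave 0.62 in LacZ PD against input. The filterByExpr setting left NDUFAF6 and NDUFAF7 untested.

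The count of all genes called depended on the method, and the cause was not tested. In CyCoNP PD against input, where the main count was 16, it was 6 under library size alone, 72 by DESeq2, 126 without a count filter, 0 with only the 2 groups compared, 284 with the replicate block in edgeR, 122 with the block in DESeq2 and 0 to 119 with one library left out. In LacZ PD against input, from 0, it was 54 with DESeq2, 36 without a filter, 22 with only the 2 groups, 116 and 85 with the block in edgeR and DESeq2, and 0 to 24 with one library left out. In CyCoNP PD against LacZ PD, from 0, it was 1 under library size alone, 38 by DESeq2, 62 without a filter, 61 with only the 2 groups, 97 and 53 with the block, and 0 to 61 with one library left out. Of the listed respiratory chain genes, 0 were called in each comparison. Against input, 1 was called in CyCoNP PD with DESeq2, 1 without a filter, 2 with the block in either tool and 0 to 1 with one library left out. In LacZ PD against input 2 were called with DESeq2, 1 without a filter, 3 and 2 with the block, and 0 to 1 with one library left out. Between the pull-downs 1 was called with DESeq2, 3 without a filter, 2 with only the 2 groups, 3 with the block in either tool and 0 to 3 with one library left out. Depth limits the control, since NDUFAF4, NDUFAF6 and NDUFAF7 had 0 counts in LacZ PD 1.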

Other observations

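None of the tested genes that overlap or adjoin the other assembly factors was called in CyCoNP PD against input, where edgeR called 0.127% of all genes. CEBPZ, which starts 35 bases from NDUFAF7 on the opposite strand, had a log2 fold change of -0.15 (SE 0.61) in CyCoNP PD against input, and PRKD3, which overlaps the other end of NDUFAF7, had -1.30 (SE 0.73). IMPDH2, a purine synthesis enzyme encoded 830 bases from NDUFAF3, was at 0.66 (SE 0.62), and DALRD3, which overlaps NDUFAF3, took only 2 and 10 counts in input, next to 6 and 1 in CyCoNP PD. RTF1, which overlaps NDUFAF1, was at -0.40 (SE 0.62), ESF1 beside NDUFAF5 at 0.36 (SE 0.63) and TEPSIN beside NDUFAF8 at -1.71 (SE 1.03). With edgeR and Benjamini-Hochberg adjustment all 7 of these genes had an adjusted p of 0.9996 in that comparison.

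Among the assembly factors of other complexes, TMEM70, which acts on ATP synthase, had a log2 fold change of 1.48 (SE 0.70) and SCO2, a copper chaperone of cytochrome c oxidase, 1.13 (SE 0.71) in CyCoNP PD against input, while PET117 was at -0.55 (SE 0.66) and UQCC3 at -0.44 (SE 0.75). In LacZ PD against input SCO2 was at 1.02 (SE 0.86) and TMEM70 at -0.076 (SE 1.02). Of these 4 genes TMEM70 had the lowest adjusted p with edgeR in CyCoNP PD against input, 0.948.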
